A study of Mus musculus with 32 samples.

Results

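The 7 genes described here encode the scaffolds of the excitatory postsynaptic density, Shank1, Shank2, Shank3, Dlgap1, Dlgap2, Dlgap3 and Dlgap4. They were chosen by gene name, the Shank family and Dlgap1 to Dlgap4, out of 55573 genes in the count table, and all 7 passed the filter on low counts in every comparison. RNA was collected separately from the soma and the neurites of cultured mouse hippocampal neurons grown on a microporous membrane, with cell bodies on top and axons and dendrites crossing below. The study asked which RNAs are enriched in neurites, whether depolarization changes this, and whether it depends on Mettl3, the catalytic subunit of the enzyme complex that writes N6-methyladenosine (m6A) in mRNA. RNA-seq and an m6A mapping assay, DART-seq, were run on the same design.

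Shank and Dlgap proteins form the layered core of the postsynaptic density. Dlgap proteins, also called SAPAP or GKAP, bind the guanylate kinase domain of the Dlg scaffolds that hold glutamate receptors and adhesion molecules at the membrane. The PDZ domain of Shank proteins binds the C terminus of Dlgap proteins, and their proline-rich stretch binds Homer and cortactin, which lead on to metabotropic glutamate receptors and actin. Shank1 mRNA is a textbook example of an mRNA carried into dendrites, and variants in SHANK2, SHANK3 and several DLGAP genes have been linked to neurodevelopmental and psychiatric disorders.

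Each of the 8 RNA-seq groups held 2 libraries, one for each combination of WT or Mettl3 KO, soma or neurites, and Ctrl or KCl. WT cultures came from C57BL/6 mice and KO cultures from the Mettl3Flox/Flox strain (genotype Mettl3-/-), so strain and genotype cannot be told apart. Both genotypes, WT included, received an AAV carrying Cre-P2A-dTomato at 50000 vector genomes per cell on day 7 in vitro, with Cre under the human synapsin promoter, which limits deletion to neurons. All cultures, Ctrl included, were silenced from day 14 for 16 h with tetrodotoxin (1 µM), a sodium channel blocker, and the NMDA receptor blocker D-AP5 (50 µM). KCl cultures then received 55 mM KCl for 2 h before RNA extraction. Neonatal pups of both sexes were pooled within a litter, replicates came from different litters, Ctrl and KCl cultures of a replicate shared a litter, and Ara-C was added against glia. Any neurite left on the upper side is counted with the soma, and fewer cells of a type cannot be told apart from less RNA per cell in these bulk fractions.

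The 16 RNA-seq libraries held between 33789183 and 71394235 counts. Mettl3 itself lay between 9.05 and 16.7 CPM (counts scaled to library size) in WT and between 3.91 and 10.98 CPM in KO libraries. Its difference, KO against WT, was -0.73 on the log2 scale in soma (edgeR quasi-likelihood test, Benjamini-Hochberg adjusted p = 0.624) and -1.19 in neurites (adjusted p = 0.423), from counts over the whole gene including exons outside the deleted part. KCl raised the activity-induced genes Fos, Npas4 and Arc in WT soma by 7.80, 7.94 and 7.16 on the log2 scale and in WT neurites by 6.63, 7.06 and 6.72 (adjusted p between 1.2e-09 and 1.1e-06 by the same edgeR test). The 10 neuronal markers summed to 4137 to 6775 CPM in WT and 1132 to 6128 CPM in KO. The first KO insert treated with KCl stood apart in both fractions. Its neuronal sums were 1982 CPM in soma and 1132 CPM in neurites. Its 8 astrocyte markers summed to 9636 and 19018 CPM, against 1728 to 6419 in the other KO libraries and 926 to 2883 in WT. Its 7 oligodendrocyte lineage markers summed to 3706 and 7504 CPM, against at most 173 in every other library. The 6 microglial and the 6 fibroblast and vessel markers had their highest sums, 235 and 710 CPM, in the same insert. No marker of any list was at 0 in any library. The SD of the log2 ratio between replicates over 15170 genes was 0.198 to 0.402 in WT groups and 0.552 to 1.46 in KO groups, so WT differences were measured far more precisely than KO differences.

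In the GENCODE M21 annotation of GRCm38, the build of the deposited files, all 7 genes lie on the plus strand and are protein coding. Shank1 (ENSMUSG00000038738) spans chr7:44310253-44360572, and Shank2 (ENSMUSG00000037541) spans chr7:144001928-144424494. Shank3 (ENSMUSG00000022623) lies at chr15:89499623-89560261. Dlgap1 (ENSMUSG00000003279) lies at chr17:69969073-70821413 and Dlgap2 (ENSMUSG00000047495) at chr8:14095865-14847680. Dlgap3 (ENSMUSG00000042388) covers chr4:127169204-127237022 and Dlgap4 (ENSMUSG00000061689) covers chr2:156613705-156764363. The counting did not use strand, so reads from antisense transcripts that share exonic bases cannot be told apart from those of the member. This touches 339 bases of Shank1 (10514 exonic bases in all), 271 of Shank3 (9236), 92 of Dlgap1 (17890) and 24 of Dlgap4 (8451), and no exonic base of Shank2 (10768), Dlgap2 (6149) or Dlgap3 (4521).

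Levels differed widely among the members once gene length was taken into account. Levels are given as FPKM (counts scaled to exon length and library size), computed from the counts and gene lengths with TMM-scaled library sizes. The length covers the exons of all annotated transcripts of a gene, and the transcripts expressed were not determined, so the order of members depends on it. In CPM, without length, Dlgap1 lay above Dlgap3 in WT Ctrl, at 253 against 89.7 in soma and 340 against 263 in neurites. In WT Ctrl soma, Dlgap3 had the highest mean level at 19.9 FPKM, followed by Dlgap1 at 14.1, Dlgap4 at 12.8, Shank2 at 11.8, Dlgap2 at 9.40, Shank1 at 4.28 and Shank3 at 0.914 FPKM. No neighbours in that order overlapped between their replicates. In WT Ctrl neurites the order was Dlgap3 at 58.2 FPKM, Shank2 at 22.9, Dlgap1 and Dlgap4 both at 19.0, Shank1 at 18.9, Dlgap2 at 10.9 and Shank3 at 2.5. There the replicate ranges of Dlgap1, Dlgap4 and Shank1 overlapped and could not be ordered. Above 5 FPKM in both replicates were 5 members in soma and 6 in neurites of WT Ctrl, the difference being Shank1, and Shank3 stayed below in both.

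**Figure D1:**
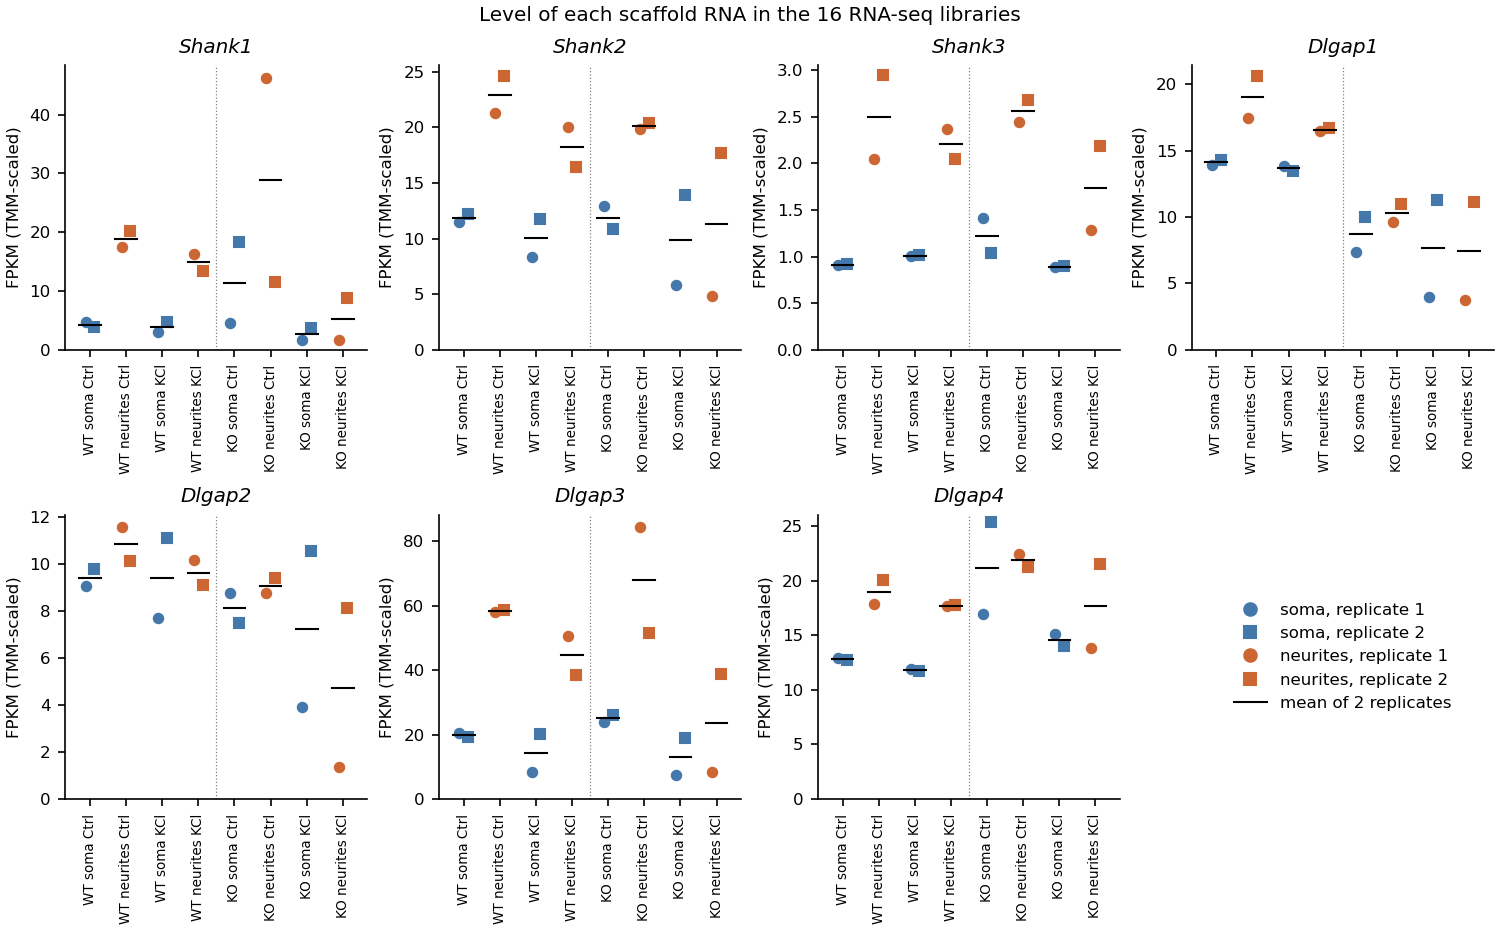
FPKM (y axis, linear, from 0) of each scaffold RNA in the 16 RNA-seq libraries, by group (x axis); circles are replicate 1, squares replicate 2, blue soma, orange neurites, and bars the mean of 2 replicates. In WT Ctrl, Shank1, Shank3 and Dlgap3 neurites (17.5 to 20.2, 2.05 to 2.95 and 57.9 to 58.5 FPKM) lie well above soma, and KO groups spread more.

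Shank1 was the most neurite-enriched of the family, Shank3 and Shank2 followed, and all 3 were higher in WT neurites than in WT soma. The neurite to soma comparison used an edgeR quasi-likelihood fit of the 8 WT libraries, and a gene was called enriched at an adjusted p of at most 0.05 and at least 1.5-fold. Shank1, which has an ankyrin repeat domain that anchors further partners, measured 4.68 and 3.88 FPKM in WT Ctrl soma and 17.5 and 20.2 FPKM in neurites. Both neurite libraries lay above both soma libraries by a wide margin. Its FCN/S, the fold change of neurites over soma, was 4.13 (log2 2.04, SE 0.22, edgeR adjusted p = 3.2e-04), at percentile 99.6 of all 23200 genes tested. Shank3, whose loss in people is tied to Phelan-McDermid syndrome, measured 0.910 and 0.918 FPKM in soma and 2.05 and 2.95 FPKM in neurites. Its FCN/S of 2.56 (log2 1.35, SE 0.18, edgeR adjusted p = 0.00104) rested on 550 to 1015 counts per library, the fewest of the 7. Shank2 measured 11.5 and 12.2 FPKM in soma and 21.3 and 24.6 FPKM in neurites. Its FCN/S was 1.82 (log2 0.86, SE 0.17, edgeR adjusted p = 0.00778), and without the second neurite library its adjusted p was 0.0553.

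Among the Dlgap genes, Dlgap3 was enriched in neurites, Dlgap4 was higher by less than 1.5-fold, and Dlgap1 and Dlgap2 were not called. Dlgap3, also known as SAPAP3 and best known from cortex and striatum, measured 20.3 and 19.4 FPKM in WT Ctrl soma and 57.9 and 58.5 FPKM in neurites. Its FCN/S was 2.75 (log2 1.46, SE 0.31, edgeR adjusted p = 0.0101). Leaving out either WT Ctrl soma library gave a log2 value of 1.57 or 1.5 with adjusted p of 0.0521 or 0.0739. Dlgap4 measured 12.9 and 12.7 FPKM in soma and 17.8 and 20.1 FPKM in neurites. Its fold of 1.38 (log2 0.47, SE 0.10, edgeR adjusted p = 0.0119) passed the p threshold but not the fold. Dlgap1, the founding GKAP, measured 13.9 and 14.3 FPKM in soma and 17.5 and 20.6 FPKM in neurites, a log2 difference of 0.34 (SE 0.11, edgeR adjusted p = 0.0532). Dlgap2 measured 9.04 and 9.77 FPKM in soma and 11.6 and 10.1 FPKM in neurites, with a log2 difference of 0.11 (SE 0.17, edgeR adjusted p = 0.667, 95% interval -0.26 to 0.49).

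In WT Ctrl, then, 4 of 7 members were called enriched in neurites, where 9.01% of all genes tested were. The median log2 difference was 0.86 over the members and -0.10 over all genes tested. In WT KCl cultures 5 of 7 were called, against a background of 6.87% of all genes. The log2 values there were 1.94 for Shank1, 0.87 for Shank2, 1.15 for Shank3, 1.65 for Dlgap3 and 0.60 for Dlgap4, with edgeR adjusted p between 6.3e-04 and 0.00927. Dlgap4 lay just past the fold threshold at 1.51-fold, and Dlgap1 (0.30, edgeR adjusted p = 0.102) and Dlgap2 (0.05, edgeR adjusted p = 0.886) were not called. Without the first WT KCl neurite library only Shank1 and Shank3 remained of those 5. When the spread was estimated from all 16 libraries, the more variable KO ones included, no member was called in either condition, and neither was any other gene (0 in all, against 3145 and 2211 in either direction from the WT libraries alone). The log2 values under that fit were 2.14, 0.96, 1.46 and 1.56 for Shank1, Shank2, Shank3 and Dlgap3 in WT Ctrl, with edgeR adjusted p between 0.202 and 0.722. Astrocyte markers were also higher in WT neurites, at 1824 to 2883 CPM against 926 to 1389 CPM in WT soma. So were oligodendrocyte lineage markers, at 63.1 to 107 CPM against 38.8 to 49.8. Microglial sums (17.1 to 26.4 in neurites, 10.4 to 17.5 in soma) and fibroblast and vessel sums (18.8 to 76.8, 9.79 to 26.0) overlapped. Neuronal markers summed to 5450 to 6775 CPM in neurites against 4137 to 5743 in soma. The part of these in the members' enrichment was not tested.

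The unequal enrichment changed the make-up of each family between compartments. Of the summed Shank FPKM, Shank2 took 69.5% ± 3.18 (SD, n = 2) in WT Ctrl soma and 51.8% ± 0.416 in neurites. Shank1 took 25.2% ± 3.23 in soma and 42.6% ± 0.407 in neurites, while Shank3 took 5.37% ± 0.0524 and 5.60% ± 0.823. The shares of Shank1 and Shank2 thus lay closer together in neurites than in soma, with Shank2 still the larger. Of the summed Dlgap FPKM, Dlgap3 took 35.3% ± 1.2 in soma and 54.4% ± 1.24 in neurites. The shares of Dlgap1 (25.1% ± 0.489 and 17.8% ± 1.55), Dlgap2 (16.7% ± 0.938 and 10.2% ± 1.26) and Dlgap4 (22.8% ± 0.227 and 17.7% ± 0.949) were all smaller in neurites. In WT KCl the shares of Shank1 (25.9% ± 2.12 in soma and 42.1% ± 0.0311 in neurites) and Dlgap3 (27.9% ± 10.8 and 50.1% ± 4.45) showed the same order.

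**Figure D2:**
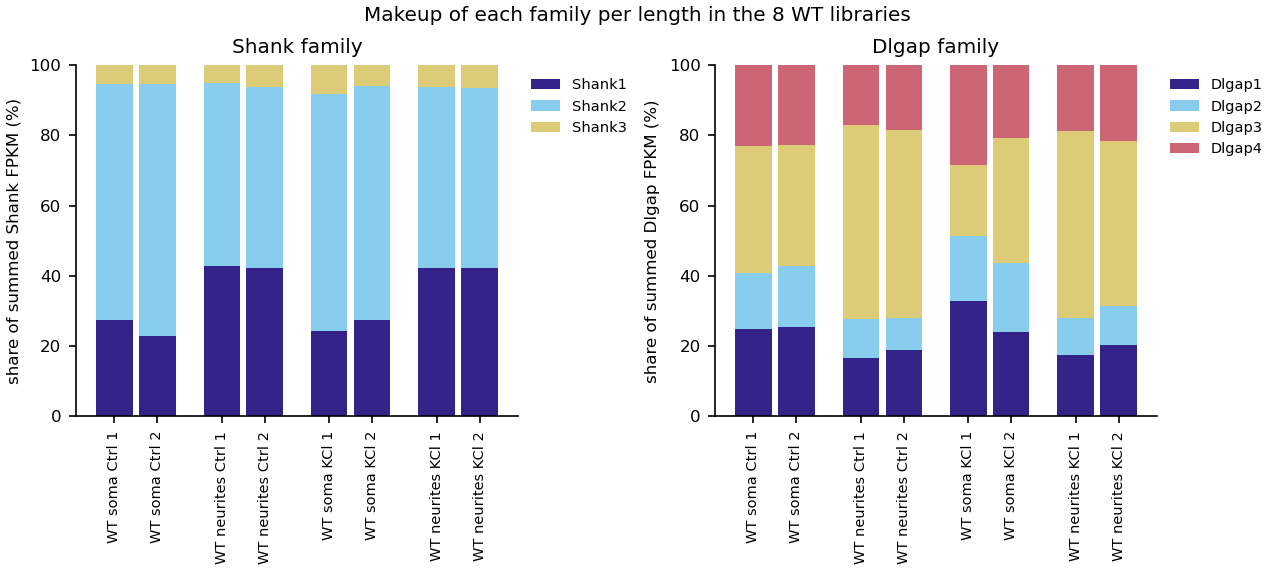
Share of the summed FPKM of the Shank family and of the 4 Dlgap genes (y axis, percent, stacked) in each of the 8 WT libraries (x axis). In WT Ctrl the Shank1 share is 25.2% in soma and 42.6% in neurites, and the Dlgap3 share 35.3% and 54.4%.

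To compare members with each other, the neurite to soma ratio was taken within each of 8 inserts, an insert being the piece of membrane whose top and bottom gave the soma and neurite libraries of the same number in one condition. Gene length cancels in such a ratio, and so would an effect shared by both libraries of an insert. That libraries with the same replicate number came from the same insert was assumed. Their deviations between replicates correlated at -0.133 in WT Ctrl, 0.0330 in WT KCl, 0.0751 in KO Ctrl and 0.897 in KO KCl. The ratios of single inserts depend on this pairing. Since Ctrl and KCl inserts of a replicate shared a litter, the 8 inserts came from 4 litters. The p-values over inserts treat them as independent and are therefore too small, and over 4 litters the smallest exact sign-flip p would be 0.125, so no member and no pair of members could pass by litter. Shank3 was above soma in 8 of 8 inserts, with log2 ratios from 0.53 to 1.68, a mean of 1.13 ± 0.36 (SD, n = 8) and the smallest p that 8 inserts allow (exact two-sided sign-flip test, p = 0.00781). Dlgap3 was likewise above soma in 8 of 8 inserts, from 0.22 to 2.57, with a mean of 1.34 ± 0.70 (exact sign-flip p = 0.00781). Shank1 had the highest mean, 1.51 ± 1.32, and by far the widest spread (exact sign-flip p = 0.0313, 6 of 8 inserts above 0). Its 4 WT inserts lay between 1.49 and 2.44. Its KO inserts were 3.33 and -0.66 in Ctrl and -0.02 and 1.22 in KCl.

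Shank2 averaged 0.66 ± 0.47 (7 of 8 inserts, exact sign-flip p = 0.0156), Dlgap4 0.37 ± 0.35 (6 of 8, exact p = 0.0313), Dlgap1 0.23 ± 0.21 (6 of 8, exact p = 0.0313) and Dlgap2 -0.13 ± 0.63 (5 of 8, exact p = 0.773). These p-values are unadjusted, the test was not run over all genes to give a background share, and 6 of 7 were at most 0.05. Leaving out 1 insert left between 3 and 6 of them, and 3 whenever any WT insert or the first KO Ctrl insert was left out. Over the 4 WT inserts alone, which are too few for such a test, the means were 2.05, 0.91, 1.28, 0.35, 0.13, 1.66 and 0.57 for Shank1, Shank2, Shank3, Dlgap1, Dlgap2, Dlgap3 and Dlgap4.

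Of the 21 pairs of members, 13 had an unadjusted exact p of at most 0.05 over the inserts, again with shared litters ignored. Pairs of other genes were not tested, so this count has no background share either. In mean ratio, Dlgap3 and Shank3 each lay above Shank2, Dlgap1, Dlgap2 and Dlgap4. Dlgap3 was above Shank2 by 0.68 ± 0.40 and above Dlgap4 by 0.97 ± 0.59 in 8 of 8 inserts (both exact sign-flip p = 0.00781). Shank3 was above Dlgap1 by 0.91 ± 0.32 in 8 of 8 inserts (exact p = 0.00781) and Shank2 by 0.47 ± 0.32 in 7 of 8 (exact p = 0.0156). Shank1 lay above Dlgap1, Dlgap2 and Dlgap4. Over the 8 inserts it was not separated from Shank2 (0.85 ± 1.2, exact sign-flip p = 0.0938), Shank3 (0.38 ± 1.33, exact p = 0.477) or Dlgap3 (0.17 ± 0.92, exact p = 0.578). Shank2 was above Dlgap1 and Dlgap2 by 0.43 ± 0.37 and 0.79 ± 0.24. Pairs were not tested in the 4 WT inserts alone. There the ratios ran from 1.49 to 2.44 for Shank1, 0.49 to 1.26 for Shank2, 1.01 to 1.68 for Shank3 and 0.95 to 2.57 for Dlgap3.

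**Figure D3:**
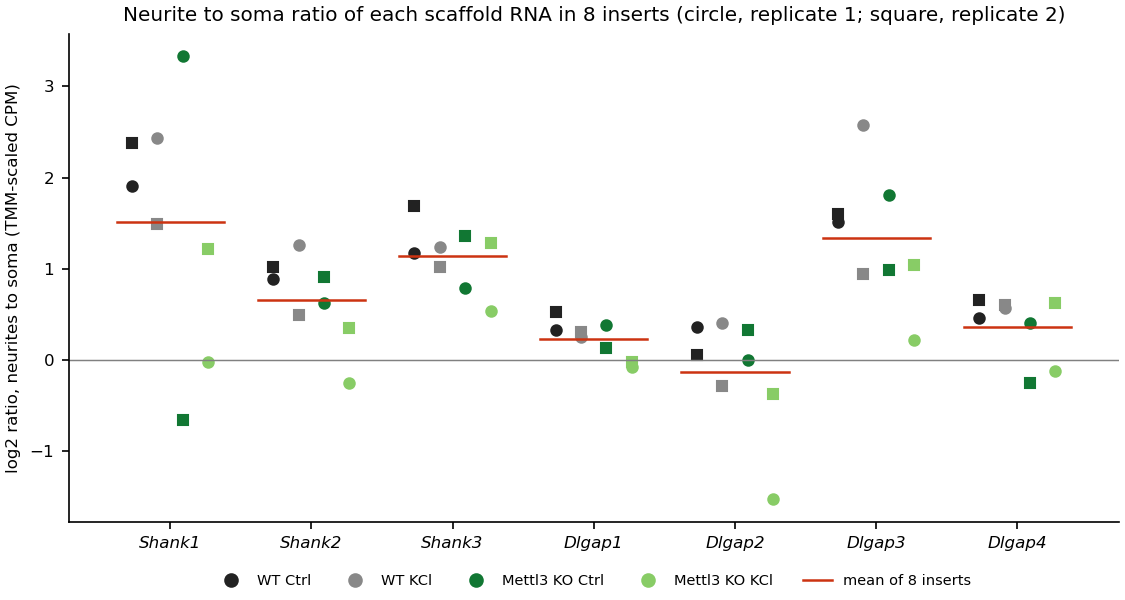
Log2 neurite to soma ratio (y axis) of each member (x axis) in each of 8 inserts, WT and KO, Ctrl and KCl, with the mean over inserts. Shank3 and Dlgap3 are above 0 in every insert, and Shank1 ranges from -0.66 to 3.33, both ends in KO Ctrl.

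A list of 21 genes for postsynaptic partners, from the Dlg and Homer scaffolds to neuroligins and dynein light chains, gave a setting for these values. In WT Ctrl 5 of 21 were called higher in neurites and 0 lower (Dlg2, Dlg4, Homer2, Homer3 and Sipa1l1), with a median log2 difference of 0.29 over the list. Of all genes tested, 9.01% were called higher. Without the second WT Ctrl neurite library 2 of 21 were called. Homer2, which binds the proline-rich part of Shank proteins, was the highest at 1.85 (SE 0.15, edgeR adjusted p = 1.1e-04). Baiap2, the actin regulator IRSp53, was the lowest at -0.35 (edgeR adjusted p = 0.0974). In WT KCl 7 of 21 were called higher and 0 lower, where 6.87% of all genes were called higher. Homer2 was at 1.60 (edgeR adjusted p = 3.3e-04) and Baiap2 at -0.50, past the p threshold (edgeR adjusted p = 0.0357) but not the fold. Without the first WT KCl neurite library 3 of 21 were called there, and with the spread of all 16 libraries 0 of 21 in either condition.

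KCl for 2 h changed no member in either WT compartment at an adjusted p of at most 0.05 and 2-fold (0 of 7 in soma and 0 of 7 in neurites by edgeR, at unadjusted p too, and 0 by DESeq2). The backgrounds were 6.7% of genes in soma and 5.03% in neurites. In soma the log2 differences, KCl against Ctrl, ran from -0.55 for Dlgap3 to 0.07 for Shank3, with a median of -0.20 against 0.01 over all genes. In neurites they ran from -0.35 for Dlgap3 to -0.06 for Dlgap4, with a median of -0.16 against 0.01. Dlgap3 had the widest spread. It measured 8.49 and 20.03 FPKM in WT KCl soma and 50.5 and 38.6 FPKM in WT KCl neurites. The first of these soma libraries was below both Ctrl soma libraries (20.3 and 19.4 FPKM) and the second was level with them, so the groups overlapped. The fitted difference in soma had a 95% interval of -1.21 to 0.12 (edgeR adjusted p = 0.293), and without the second WT KCl soma library it was -1.31 and passed the threshold (edgeR adjusted p = 5.2e-04). The intervals of Shank3 (-0.33 to 0.47 in soma) and Dlgap4 (-0.29 to 0.17 in neurites) stayed well inside a 2-fold change.

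The change of enrichment with KCl, ΔFCN/S, was fitted with insert as a block and called at an unadjusted p of at most 0.05 and 1.5-fold. No member was called (0 of 7 by edgeR and by DESeq2) where 3.36% of genes were. In simulated data for this comparison the same rule called 869 unchanged genes beside 198 of 200 genes changed 4-fold, against 779 genes called in the data. The members' log2 values ran from -0.19 for Shank3 to 0.31 for Dlgap3. Dlgap3 was carried by single inserts, at 1.16 without the second KCl insert (edgeR unadjusted p = 1.4e-04, with 1572 genes called) and -0.51 without the first. Of the partners, Homer1 was the one called in each compartment. It has an activity-induced short form, and it rose with KCl by 2.77 in WT soma (SE 0.24, edgeR adjusted p = 3.1e-05) and by 2.17 in WT neurites (SE 0.24, edgeR adjusted p = 3.3e-04). Homer3, at -0.79 in soma (edgeR adjusted p = 0.0131), passed the p threshold but not the fold. Homer1 was also the only partner past the threshold for ΔFCN/S, at -0.59 (edgeR unadjusted p = 0.00894, adjusted p = 0.999). It missed the threshold with no insert block (-0.60, edgeR unadjusted p = 0.0868), without the first or the second WT Ctrl insert (edgeR unadjusted p = 0.0503 and 0.104) and, by its fold, without the second KCl insert (-0.50).

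In Mettl3 KO cultures no member was called enriched in neurites in Ctrl, but neither was any gene (0% of 22557 tested by edgeR, 1239 at an unadjusted p of at most 0.05, and 17 by DESeq2). Shank1 measured 4.58 and 18.3 FPKM in KO Ctrl soma and 46.2 and 11.6 FPKM in KO Ctrl neurites. The second soma library exceeded the second neurite library, and the first neurite library was the highest of all 16. In simulated data with this spread, 0% of 200 genes changed 4-fold were recovered, against 97% in WT Ctrl. The log2 differences in KO Ctrl were 1.26 for Shank1 (SE 1.02), 0.71 for Shank2, 1.02 for Shank3 (SE 0.43, edgeR unadjusted p = 0.0440), 0.19 for Dlgap1, 0.11 for Dlgap2, 1.39 for Dlgap3 (SE 0.73) and -0.01 for Dlgap4. Without the KCl insert that stood apart they were 1.28, 0.72, 1.03, 0.20, 0.12, 1.40 and -1.6e-04 in the same order. In KO KCl 0 of 7 members and 0% of all genes were called by edgeR (132 genes at unadjusted p, 0 by DESeq2), with log2 values from -0.68 for Dlgap2 to 0.89 for Shank3.

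Set against WT in the same Ctrl compartment, no member was called in KO (0 of 7 in soma and in neurites by edgeR and by DESeq2), where 0.185% of genes in soma and 0.188% in neurites were. Dlgap1 measured 7.39 and 10.03 FPKM in KO Ctrl soma against 13.9 and 14.3 in WT, and 9.63 and 11 FPKM in KO Ctrl neurites against 17.5 and 20.6 in WT. All 8 KO libraries, from 3.79 to 11.3 FPKM, lay below all 8 WT libraries, from 13.5 to 20.6 FPKM. The share of all genes that separate the genotypes in this way was not counted. Within a genotype, the libraries of a replicate shared a litter and are not independent. The fitted log2 differences were -0.70 in soma (SE 0.48, edgeR adjusted p = 0.722) and -0.88 in neurites (SE 0.48, edgeR adjusted p = 0.779). Dlgap4 was the other way round in soma, at 17.0 and 25.4 FPKM in KO against 12.9 and 12.7 FPKM in WT. Its log2 difference of 0.72 (SE 0.26) had an unadjusted p of 0.0162 and an edgeR adjusted p of 0.414. Without the first KO Ctrl soma library it was 0.98 and called (edgeR adjusted p = 0.0242), in a fit that called 2705 genes in all against 44 with every library. Shank1 differed by 1.41 in soma (SE 0.82, edgeR adjusted p = 0.660) and 0.61 in neurites (SE 0.81, edgeR adjusted p = 0.962). With no filter on low counts its soma value was 1.43 and called (edgeR adjusted p = 0.0193), among 505 genes in all. The other members lay between -0.21 and 0.42 in soma and between -0.26 and 0.23 in neurites.

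The KO change of enrichment in Ctrl (ΔFCN/S, KO against WT, insert as a block) was called for 0 of 7 members by edgeR and by DESeq2 against 4.19% of genes (962 genes, and 296 with no insert block). All 7 log2 values were below 0, from -0.80 for Shank1 to -0.04 for Dlgap2, with a median of -0.19 against -0.03 over all genes. Of all genes tested, 47.5% were above 0. The 7 values come from the same inserts and are not independent. Every one of the 95% intervals included 0. Shank1 swung from -2.80 to 1.26 as single inserts were left out. It was called at -2.80 without the first KO Ctrl insert, where 4934 genes were called, and at 1.26 without the second, where 1990 were. Dlgap2 was above 0 with no filter on low counts (0.00357). Of the partners, Dynll1, a dynein light chain that binds Dlgap1 protein, was the only one past the threshold, at 1.76 (edgeR unadjusted p = 0.0245, adjusted p = 0.934). It missed it with no insert block (1.16, edgeR unadjusted p = 0.197) and without either WT Ctrl insert (edgeR unadjusted p = 0.0658 and 0.0769), and leaving out 1 insert gave 0.64 to 2.96.

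With KCl in KO cultures Shank1 measured 1.61 and 3.77 FPKM in soma, against 3.01 and 4.80 FPKM in WT KCl soma. In neurites it measured 1.59 and 8.77 FPKM, against 16.3 and 13.5 FPKM in WT KCl neurites. The lower KO value in each compartment came from the first KO KCl insert, the one that stood apart. Both neurite values lay below both KO Ctrl neurite values and both soma values below both KO Ctrl soma values. The share of all genes that separate in this way was not counted. The log2 differences of -2.17 in soma (SE 1.06, edgeR adjusted p = 0.751) and -2.55 in neurites (SE 1.09, edgeR unadjusted p = 0.0476, adjusted p = 0.737) were not called. No gene was called in either fit (0% in soma with 1514 genes at unadjusted p, 0% in neurites with 1328, and 270 and 253 genes by DESeq2, none of them a member). With no filter on low counts Shank1 was called in both (-2.15, edgeR adjusted p = 0.00665, and -2.60, adjusted p = 3.9e-04), among 780 genes in soma and 742 in neurites. Its 963 to 22327 counts per KO library lie far above the filter. In WT Ctrl neurite enrichment the same setting took the edgeR adjusted p of Shank1 from 3.2e-04 to 7.3e-45. The first KO KCl insert had the lowest level of every member among KO neurite libraries, and of every member but Dlgap4 among KO soma libraries, together with the low neuronal and high glial marker sums given above, whose part in these values was not tested. Without the neurite library of that insert the Shank1 difference in neurites was -1.78, and without the first KO Ctrl neurite library it was -1.25.

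DART-seq maps m6A by fusing the m6A-binding YTH domain to the deaminase APOBEC1. The fusion edits cytidines that follow a methylated adenosine, which read as C-to-U changes. Here 250 ng of the fusion protein was incubated with 50 ng of RNA in vitro. The authors called sites in RAC triplets, where R is A or G, A is the presumed m6A and C the edited base. For each site 1 editing value is given, averaged over libraries, with no replicate values. The list holds 18231 sites in 5643 RNAs. It holds 47 sites in 6 of the 7 members, and Dlgap2 has no entry. The strongest site of each member, shown to let the local context be read, is given 5′ to 3′ on the plus strand of GRCm38 with the RAC triplet in capitals and 10 bases on each side of the edited C.
Shank2 site 1, chr7:144421108-144421128, coding: ggctttgaAACagctgctgga
Shank3 site 1, chr15:89503336-89503356, coding, exon 5: acgccactGACctcctgaagg
Dlgap1 site 5, chr17:70819982-70820002, 3′ UTR: cctttctcAACagggcacaaa
Dlgap3 site 1, chr4:127195356-127195376, coding, exon 3: ggatgggcGACaccagaccaa
Dlgap4 site 4, chr2:156748979-156748999, coding, exon 10: gggacactGACtctgataccc

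Shank1, the most neurite-enriched member, had 7 sites, 5 coding and 2 in the 3′ UTR, and its 3 strongest coding sites lay close together in the spliced RNA. Those 3 and the stronger 3′ UTR site are shown in the same way, because they hold the highest editing values of this RNA in each region.
Shank1 site 3, chr7:44344544-44344564, coding, exon 21: aaaaagcgGACtgtgtatcag
Shank1 site 4, chr7:44344890-44344910, coding, exon 22: tccccacaGACaaactggatg
Shank1 site 4, the same site in the spliced transcript: tggcactcAACaaactggatg
Shank1 site 5, chr7:44351567-44351587, coding, exon 24: agatgacaGACcctacctagc
Shank1 site 7, chr7:44359851-44359871, 3′ UTR, exon 25: gggggaaaAACctgaaataaa
Editing was 3.74% at site 3, 8.86% at site 4, 5.97% at site 5 and 2.72% at site 7. The edited C of site 4 is base 2 of exon 22 of 25, so the base before its A is intronic G in the genome and A from exon 21 in the spliced transcript. Both readings are RAC. Such triplets across an exon start made up 91 of the 18231 sites, or 0.499%.

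The sites differed among members in number, place and context. Of the 47 sites, 33 (70.2%) were coding and 14 (29.8%) were in the 3′ UTR, against 60.2% and 32.1% of all sites in the list. A site was labelled coding if any annotated transcript had it in coding sequence, ahead of 3′ UTR. Many of the members' coding sites lie in another type of region in other transcripts. Dlgap1 stood apart with all 6 of its sites in the 3′ UTR, between 251 and 1980 spliced bases past the last coding base. Dlgap4, by contrast, had 11 of 12 sites in coding exons, Dlgap3 7 of 8 and Shank3 9 of 12. The strongest Shank2 site, at 12.03%, lay 14 bases before the last coding base, and its only other site, at 10.8%, was in the 3′ UTR. The 5-base m6A consensus DRACH (D is any base but C, H any base but G) held, read in the spliced transcript, at 30 of 47 member sites (63.8%) against 70.8% of all sites. It held at 6 of 7 Shank1 sites, the exception being the strongest, site 4, which matches only in the genome, and at 1 of 6 Dlgap1 sites, including neither of the 2 strongest in Dlgap1 (12.3% and 9.20%). Editing values ranged from 0.741% to 12.3% with a median of 2.33%, against 3.54% over the whole list. Dlgap3, the member with the highest FPKM in WT neurites, had the lowest maximum (3.56%) of the 6.

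**Figure D4:**
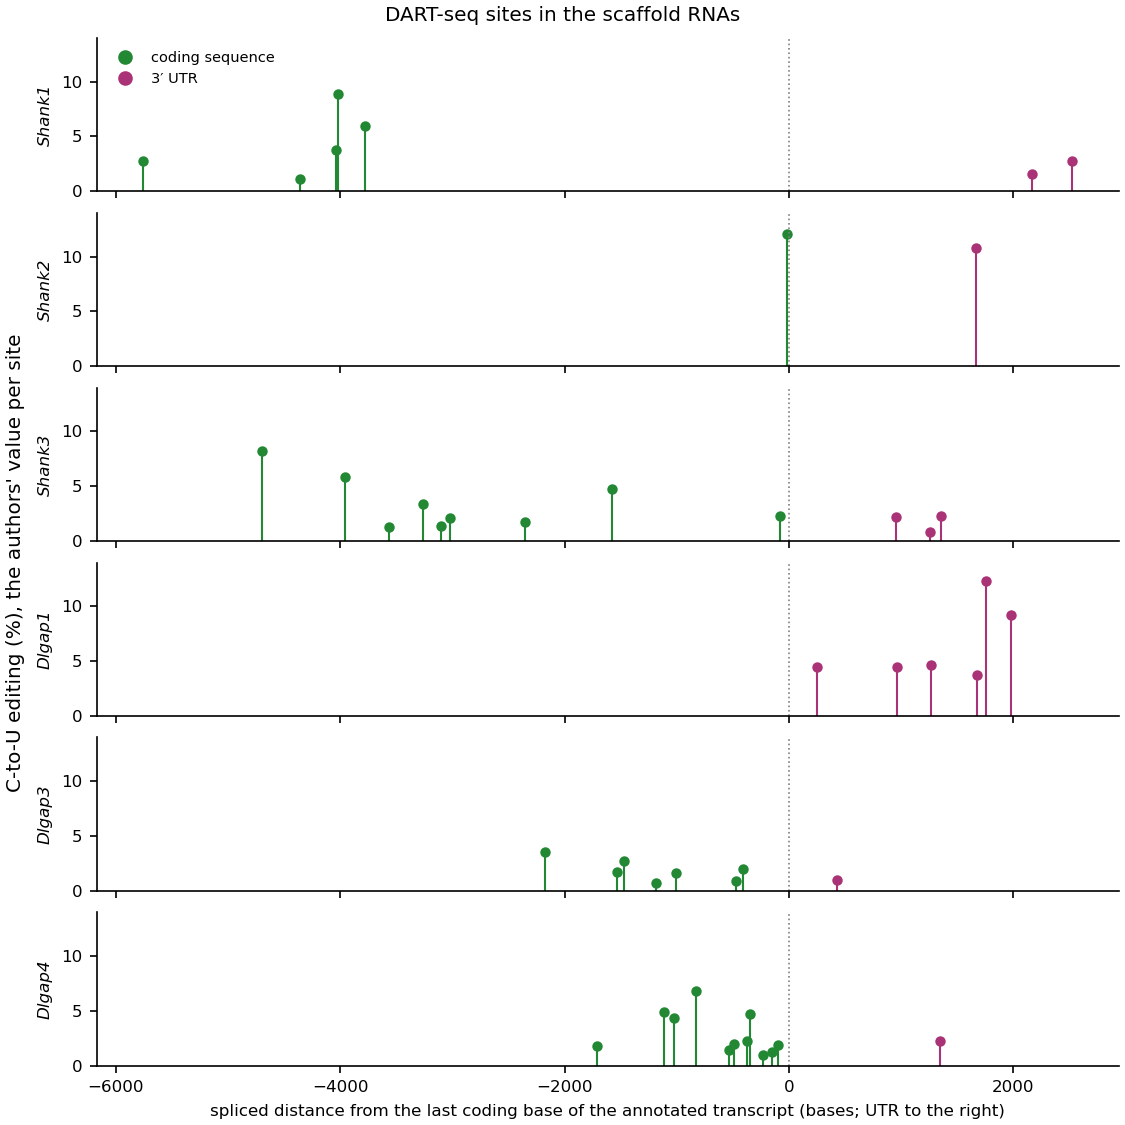
C-to-U editing at each DART-seq site (y axis, percent, the authors' value) against its spliced distance in bases from the last coding base (x axis, 3′ UTR to the right) in 6 members, green for coding and purple for 3′ UTR. Dlgap1 sites lie only to the right of 0, and the highest values are 12.3% in Dlgap1, 12.03% in Shank2 and 8.86% in Shank1.

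A second table gives 1 pooled editing score per RNA for each genotype and compartment. Over the list it followed the sum of the editing values of an RNA's sites (Pearson r = 0.984 across 5643 RNAs, which are not independent replicates), so it grows with the number of sites. All 6 listed members scored higher in WT than in KO, where 99.8% of listed RNAs did. Calling a site required more editing in WT than in KO, so this direction was fixed by how the list was made. The WT scores were 0.227 for Shank1, 0.231 for Shank2, 0.305 for Shank3, 0.396 for Dlgap1, 0.128 for Dlgap3 and 0.315 for Dlgap4, against a median of 0.103. The KO scores were 0.0659, 0.101, 0.0983, 0.145, 0.0363 and 0.114 in the same order, and the WT to KO ratios from 2.29 (Shank2) to 3.53 (Dlgap3) lay around the median of 3.10.

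The members differed most in the ratio of neurite to soma score. Dlgap1 scored 0.163 in soma and 0.633 in neurites, a ratio of 3.87 at percentile 94.4 of listed RNAs. Dlgap4 scored 0.184 and 0.479, a ratio of 2.60 at percentile 87.4. Dlgap3 (0.0834 and 0.155), Shank2 (0.182 and 0.267) and Shank3 (0.284 and 0.313) had ratios of 1.86, 1.47 and 1.10. Shank1 was the only listed member with a lower score in neurites, 0.215 against 0.250 in soma, a ratio of 0.861. Scores were higher in neurites for 68.8% of all listed RNAs, with a median ratio of 1.30. Side by side, the 2 members with the highest score ratio, Dlgap1 and Dlgap4, were, of the 6 listed, those below the 1.5-fold threshold for RNA enrichment in WT Ctrl neurites, while in WT KCl Dlgap4 was called at 1.51-fold. Per the study's supplement the soma and neurite scores pool Ctrl and KCl samples. Shank1, highest in RNA enrichment, had the lowest score ratio. These are single pooled values for 6 genes, and no error can be attached to them.

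**Figure D5:**
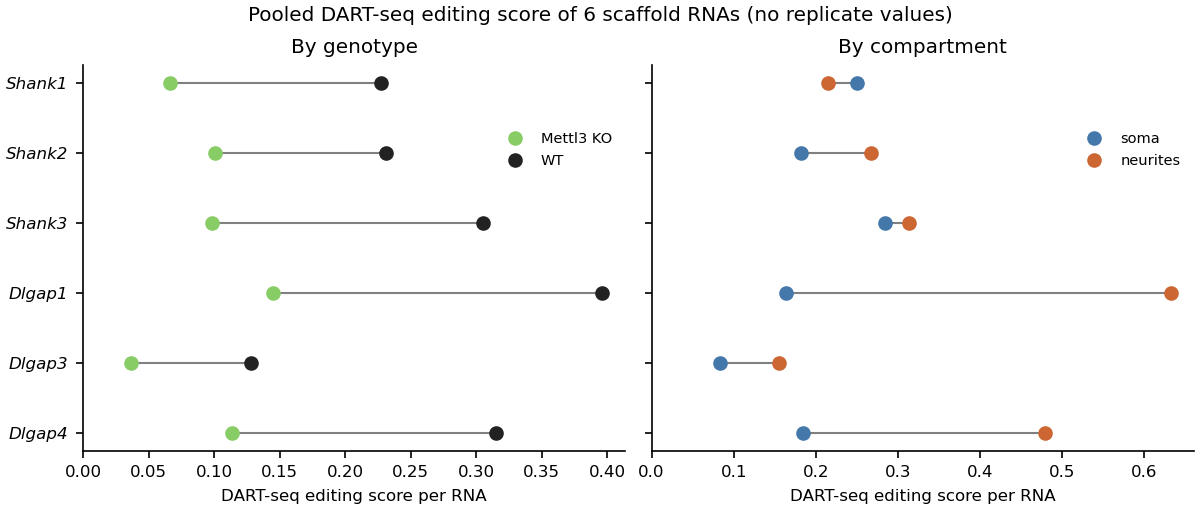
Pooled DART-seq editing score per RNA (x axis, linear, from 0) for 6 members (y axis), KO against WT on the left and soma against neurites on the right, with no replicate values. Dlgap1 moves from 0.163 in soma to 0.633 in neurites, and Shank1 from 0.250 to 0.215.

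Across the 16 RNA-seq libraries the members did not all follow one pattern. These libraries differ in compartment, genotype and treatment and include the KO KCl insert that stood apart. The part of these differences in the correlations was not tested. The highest Pearson correlations of log2 CPM between members were 0.940 for Shank2 with Dlgap3 and 0.933 for Shank1 with Dlgap3, and the lowest was 0.0756 for Dlgap1 with Dlgap4. Among 15170 genes, the profile most like Shank1 was that of St6galnac6 (r = 0.984), that of Shank2 Kcnh3 (0.975), that of Dlgap3 Apba1 (0.981), that of Dlgap1 Frat1 (0.985), that of Dlgap2 Sgsm1 (0.982) and that of Dlgap4 Ccni (0.942). The profile most like Shank3 among protein-coding genes was that of Tgfb1i1 (0.966). These correlations are descriptions over n = 16 libraries.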

How the data were processed

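Per the labels and the methods, the authors aligned paired-end reads to mm10 (GRCm38) with STAR 2.7.7a and deposited raw counts of fragments per gene from featureCounts 2.0.1, multi-mapping fragments included and without strand, with the gene lengths. For DART-seq they deposited, as averages over libraries with no depth, the C-to-U fraction of each called site and an editing score and number of sites per RNA. The deposited tables of the authors' own comparisons (mean normalized signal, fold changes and p-values) were not used.

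Counts were fitted with edgeR 4.0.16 in R 4.3.3 (TMM scaling, quasi-likelihood test, a minimum mean count of 10 over the compared libraries, 37 mitochondrially encoded genes left out, Benjamini-Hochberg adjustment over all genes tested). WT comparisons used the 8 WT libraries, KO comparisons the 8 KO libraries and genotype comparisons all 16. The call thresholds were 0.05 for the adjusted p and 1.5-fold (2-fold for KCl). For ΔFCN/S, fitted with insert as a block, they were 0.05 for the unadjusted p and 1.5-fold. Log2 ratios per insert used TMM-scaled CPM with a prior count of 0.5 and exact two-sided sign-flip tests. Adjustment over the members alone had been planned and is not printed. DESeq2 1.42.0, RLE scaling, other filters, leave-one-out and fits with or without the block were alternatives. The fits were tested on simulated data. All 7 members, Mettl3, 3 KCl-induced genes and the partner list were named by rule, partners with values only where called or at the ends of the list, and the profiles most like each member by Pearson correlation. The members and lists were chosen with earlier results of these data known. Exons, sites and sequences were read from GRCm38 with GENCODE M21. Reads carry no molecular identifiers, so counts include PCR copies.

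The methods pair soma and neurite libraries of one insert, and the pairs were taken here from the replicate numbers. Between replicates, the soma and neurite deviations of the same insert correlated at -0.133 in WT Ctrl, 0.0330 in WT KCl, 0.0751 in KO Ctrl and 0.897 in KO KCl.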

Additional observations from a re-analysis of the deposited data

Results flagged for a closer look

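Some members had neurite to soma ratios on opposite sides of 0 in every insert of 2 conditions. The share of all genes that do so was not counted. The log2 neurite to soma ratio of Dlgap1 was 0.38 and 0.13 in the KO Ctrl inserts and -0.0819 and -0.0216 in the KO KCl inserts. In WT KCl it was 0.25 and 0.31, again opposite to KO KCl. The ratio of Dlgap2 was 0.00131 and 0.32 in KO Ctrl and -1.53 and -0.38 in KO KCl. None of these differences was tested, the values near 0 are smaller than the spread between inserts, and the first KO KCl insert is the one with low neuronal and high glial marker sums.

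Among the partners, the neurite enrichment of Homer1 differed between KCl and Ctrl in WT by -0.59 on the log2 scale (edgeR unadjusted p = 0.00894, adjusted p = 0.999), and by -0.60 with no insert block (unadjusted p = 0.0868). The neurite enrichment of Dynll1 differed between KO and WT in Ctrl by 1.76 (edgeR unadjusted p = 0.0245, adjusted p = 0.934), and by 1.16 with no insert block (unadjusted p = 0.197). Each was 1 of 21 partners past an unadjusted rule, which 3.36% of all genes passed for KCl and 4.19% for KO. For KCl, that rule called 869 unchanged genes in simulated data, against 779 genes in the data. Groups of 2 libraries are too small for the test of a single outlying library.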

How the results depend on the processing

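Estimating the spread from all 16 libraries left 0 members called enriched in neurites in WT Ctrl (4 otherwise) and 0 in WT KCl (5 otherwise), with the same directions, and 0 genes of any kind in both. Leaving out 1 library gave 3 to 4 and 2 to 5 members in those comparisons, 0 to 1 for the KCl response in WT soma (Dlgap3) and for KO against WT in soma (Dlgap4, with 2705 genes called). Leaving out 1 insert gave 0 to 1 for the KCl change of enrichment in WT (Dlgap3), 0 to 2 for the KO change of enrichment (2 without the first KO Ctrl insert, where 4934 genes were called, and 1 without the second, where 1990 were), and 3 to 6 members at an exact p of at most 0.05 over the remaining inserts. With no filter on low counts, 1 member was called for the KCl response in KO soma, 1 in KO neurites and 1 for KO against WT in soma, each time Shank1. These fits called 780, 742 and 505 genes in all. Dlgap4 fell under 1.5-fold in WT KCl under RLE scaling, DESeq2 or a mean count of at least 100 (0.57, 0.57 and 0.58).

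These values changed sign. Dlgap4 enrichment in KO Ctrl was 0.0333 under RLE scaling, 0.0333 by DESeq2, 0.0217 with the replicate block and 0.0512 from the 4 libraries compared or all 16. Shank2, KO against WT in soma, was -0.0231 with no filter, -0.215 with the replicate block, -0.00854 from 4 libraries and -0.0369 without the KO KCl insert that stood apart. The KO change of Dlgap2 enrichment was 0.00357 with no filter and 0.0169 without that insert, and the mean Dlgap2 ratio over inserts was 0.13 without every KO insert. Leaving out 1 library or insert gave these ranges: Dlgap2 in WT KCl -0.18 to 0.35, Dlgap4 with KCl in WT neurites -0.14 to 0.0218, Shank3 and Dlgap3 for the KCl change of enrichment -0.44 to 0.0641 and -0.51 to 1.16, Dlgap4 in KO Ctrl -0.19 to 0.36, Dlgap2, Homer2 and Baiap2 in KO KCl -2.53 to 0.25, -0.37 to 1.41 and -1.94 to 0.0437, Dlgap2 with KCl in KO soma -1.12 to 0.39, Shank2 in KO against WT soma -0.13 to 0.0927, Shank1, Shank3 and Dlgap3 in KO against WT neurites -0.69 to 1.32, -0.20 to 0.32 and -0.16 to 0.57, Shank1 and Dlgap2 for the KO change of enrichment -2.80 to 1.26 and -0.19 to 0.12 (0.113 without the first WT insert), the mean Dlgap2 ratio over inserts -0.21 to 0.0675, and Shank1 minus Dlgap3 -0.0188 to 0.43.

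The replicate block changed no other call of a member. It left 4 members and 2845 genes called in WT Ctrl (3145 genes without it) and 5 members in WT KCl. Crossing the numbers of the 2 WT Ctrl neurite libraries, chosen after seeing the data because their correlation was negative, gave 3266 genes and 4 members. Over all genes DESeq2 called 17 in KO Ctrl enrichment, 270 and 253 for KCl in KO soma and neurites (edgeR 0 in each), 413 and 313 for KO against WT in soma and neurites (edgeR 44 and 41), 1584 for the KO change (962) and 498 for the KCl change (779). With no filter edgeR called 176, 780, 742, 505, 353, 2676 and 1457 in the same order. With 2 libraries a group, the KO spread limits what could be called: simulated 4-fold changes were recovered for 0% of genes in KO Ctrl enrichment and 33% for KO against WT in soma.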
